A study of Sus scrofa with 6 samples.

Results

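Single-embryo RNA sequencing libraries of 6 porcine embryos were divided by a threshold on 1 oocyte transcript, *BMP15*, into 3 with more and 3 with less of it. Its level was graded across the 6 embryos, so the 2 classes are a choice of threshold. The members were chosen by the FPKM of *BMP15* (a level scaled for transcript length and library size), with 100 FPKM or more defining the *BMP15*-high embryos (3 of 6) and less than 100 FPKM the *BMP15*-low embryos (3 of 6). Control 1, control 2 and *CARM1* KD 3 were *BMP15*-high, and control 3, *CARM1* KD 1 and *CARM1* KD 2 were *BMP15*-low, so each class mixed both labelled groups. The study asked what loss of *CARM1*, a histone arginine methyltransferase, does to early porcine embryos. The 3 control embryos came from MII oocytes that were not injected, and the 3 *CARM1* KD embryos from MII oocytes given about 10 pl of siRNA at 50 μM against sites in the *CARM1* coding region. All oocytes came from slaughterhouse ovaries and were matured *in vitro*, and each embryo was collected whole at day 5. No library came from an embryo injected with a negative control siRNA, so injection and siRNA cannot be told apart in these libraries. Whether these embryos arose by parthenogenetic activation or by fertilization is not given in the labels or methods.

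A mammalian oocyte stores a large stock of mRNA, since its own genome is silent from the end of growth until the embryonic genome is activated. Much of this stock is deadenylated and degraded after meiotic maturation and during the first cleavages, with BTG4 recruiting the CCR4-NOT deadenylase in mouse and human, while newly transcribed embryonic mRNA replaces it. The first epithelium of the embryo, the trophectoderm, then forms with keratin filaments, tight junctions and ion and water transport that fill the blastocoel. An embryo at the blastocyst stage is therefore known for little oocyte mRNA and for keratin mRNA. The libraries hold 1 time point, so loss or retention of a transcript was not observed, and the classes are named here by their *BMP15* level. In RNA from a whole embryo, fewer cells of a type and less RNA per cell cannot be told apart.

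Throughout, values are given in the descending order of *BMP15*, first the *BMP15*-high control 2, *CARM1* KD 3 and control 1, then the *BMP15*-low *CARM1* KD 1, control 3 and *CARM1* KD 2. *BMP15*, which encodes a TGFβ-family growth factor secreted by oocytes (ENSSSCG00000012310, chromosome X, 44613122 to 44619398), was at 899, 313 and 166 FPKM against 50.9, 11.7 and 0.819 FPKM. These values chose the classes. The members nearest the threshold were control 1 at 166 FPKM inside it and *CARM1* KD 1 at 50.9 FPKM outside it. The ratio between these neighbors was smaller than the ratios among the *BMP15*-low embryos, so the threshold does not fall at the widest break in the series. *WEE2*, encoding the oocyte kinase that restrains CDK1 during meiotic arrest (chromosome 18, 8171138 to 8195957), was at 912, 199 and 109 FPKM against 49.7, 20.7 and 2.66 FPKM, and its 3 highest libraries were the same 3 as those of *BMP15*. *BTG4*, the deadenylation adaptor (chromosome 9, 39236413 to 39301867), was at 875, 371 and 131 FPKM against 49.8, 23.9 and 0.491 FPKM. All 3 oocyte markers put the 6 embryos in the same order.

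The keratin pair went the other way. *KRT8*, a type II keratin of simple epithelia (chromosome 5, 18170354 to 18180215), was at 0.0484, 0 and 7.54 FPKM against 45.7, 30.6 and 141 FPKM. Its partner *KRT18*, the type I keratin (chromosome 5, 18217575 to 18222833), was at 0, 0 and 30.3 FPKM against 68.9, 39.2 and 165 FPKM. Both were at or near 0 in control 2 and *CARM1* KD 3, where *KRT8* had 6 and 0 counts and *KRT18* had 0 and 0. Control 1 held both, and its *KRT18* level was close to that of control 3, although its *BMP15* level was above the threshold. The labels call all 6 embryos blastocysts, and their stage was not tested here. *CDX2*, the trophectoderm transcription factor, was at 0.445, 0 and 0 FPKM against 0, 0 and 0.136 FPKM. It thus did not follow the keratin pair, and its highest level was in control 2, where *KRT18* was at 0. *CARM1* KD 3 held other trophectoderm genes, whose values are given with that list.

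**Figure D1:**
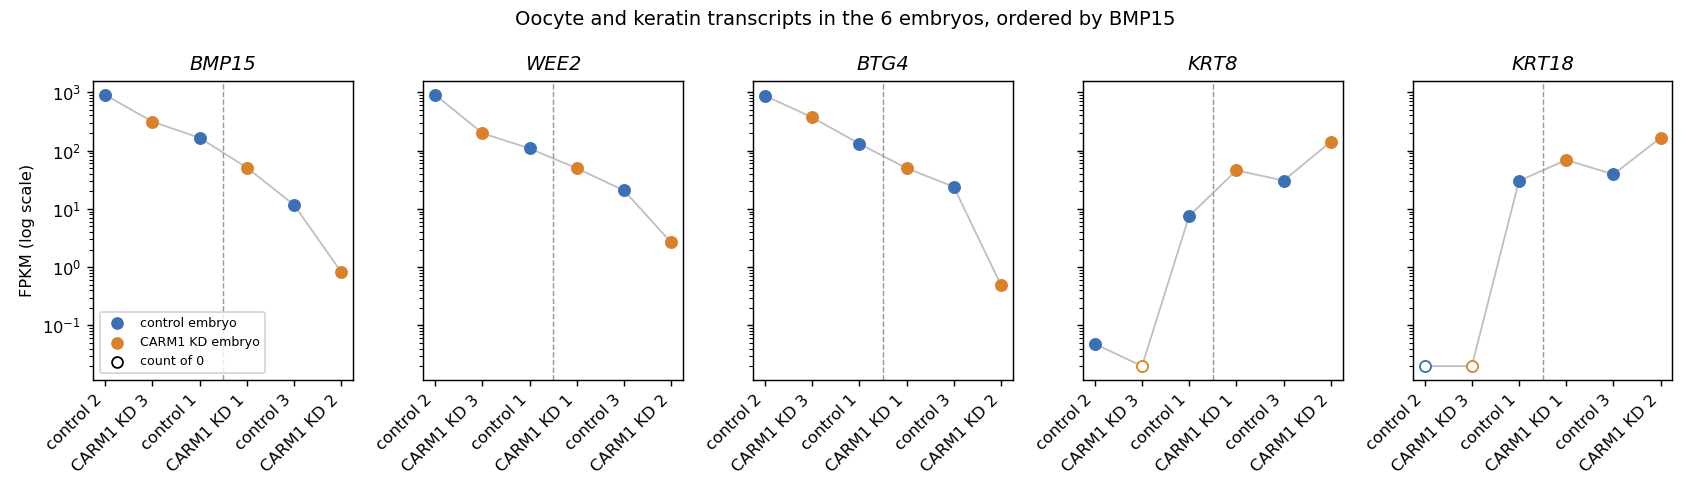
FPKM of the 5 markers (log scale) in each of the 6 embryos, ordered by *BMP15*; blue points are control embryos, orange points *CARM1* KD embryos, open points a count of 0 (drawn at the bottom of the axis), and the dashed line parts the classes. *WEE2* and *BTG4* descended in the order of *BMP15*, whereas *KRT8* and *KRT18* were at or near 0 in control 2 and *CARM1* KD 3 and reached 141 and 165 FPKM in *CARM1* KD 2.

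Several features of the libraries moved with the classes or set an embryo apart, and their part in the results below was not tested. The libraries held 26341924 to 41727594 estimated counts, with 29606920 to 41727594 in the *BMP15*-high and 26341924 to 39621756 in the *BMP15*-low embryos. Control 2 stood apart, with 46.0% of its counts from mitochondrially encoded genes against 14.5 to 23.9% in the other 5, and with 710 genes at 0 that reached 1 FPKM in all 5 others (1 to 52 such genes in each other library). Y-linked transcripts summed to 178 and 215 FPKM in *CARM1* KD 1 and *CARM1* KD 2, both *BMP15*-low, and to 9.97 to 28.1 FPKM in the other 4. Markers of other cells were low in both classes. Of 9 cumulus and granulosa genes 1 passed the filter used below and the list summed to 0.330 to 2.09 FPKM, with *FSHR*, *AMH*, *FOXL2* and *TNFAIP6* at 0 in all 6 libraries. Blood and immune genes summed to 6.47 to 11.1 FPKM, and the sperm list to 0 to 1.99 FPKM.

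The embryos were next compared across 10639 genes with at least 1 FPKM in at least 2 libraries. A gene could pass this filter through the embryos of either class alone, which favors a difference toward that class among such genes. A gene is called separated here when its lowest level in either class was at least 2 times its highest level in the other, on CPM (counts scaled to library size) with TMM scaling, edgeR's adjustment of library size, and not overlapping when that ratio was above 1. Because a level measured in the same libraries defined the classes, these counts and all fold changes between the classes are descriptions and carry no test. Across all tested genes 4.97% were separated with the higher level in *BMP15*-high embryos and 1.53% with the higher level in *BMP15*-low embryos, and 15.3% and 13.1% did not overlap. Nothing is read from the counts of listed genes against these shares. The median log2 difference of all genes was -0.32 (high minus low, from the edgeR fit on counts), and list medians are given on the same scale.

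Genes for secreted oocyte factors and the zona pellucida, the coat laid down around the growing oocyte, were higher in the *BMP15*-high embryos. Of 10 listed genes 7 were tested. Leaving out *BMP15*, 5 of 6 did not overlap and 1 was separated, with a median log2 difference of 3.12. The separated gene was *ASTL*, encoding the cortical granule protease that cleaves ZP2, at 31.2, 21.01 and 7.26 FPKM against 1.53, 1.64 and 0 FPKM. *ZP4*, a zona glycoprotein, was at 287, 77.7 and 21.8 FPKM against 7.07, 13.4 and 2.88 FPKM. *GDF9*, encoding the growth factor that pairs with BMP15, was at 143, 51.2 and 25.3 FPKM against 13.02, 3.38 and 1.82 FPKM and ranked the embryos exactly as *BMP15* did. Both were lowest in *CARM1* KD 2. *ZP2*, the sperm-binding zona glycoprotein in human and mouse, was at 82.6, 71.6 and 24.1 FPKM against 7.83, 11.1 and 4.32 FPKM. *ZP3* was at 20.9, 44.2 and 8.195 FPKM against 4.35, 4.66 and 3.28 FPKM, with no overlap between the classes but a ratio below 2 between control 1 and control 3. *OOSP2*, encoding an oocyte-secreted protein, was the exception in this list, at 178, 197 and 31.3 FPKM against 26.3, 58.1 and 0 FPKM, since control 3 exceeded control 1.

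Regulators of the oocyte's meiotic divisions fell into a large set that followed the classes and a smaller set that did not. Of 9 tested genes 5 were separated with the higher level in *BMP15*-high embryos, and the median log2 difference was 2.87. *MOS*, the kinase that sustains metaphase II arrest, was at 209.6, 359 and 73.1 FPKM against 27.2, 10.4 and 2.66 FPKM. *CPEB1*, which controls cytoplasmic polyadenylation of stored mRNA, was at 72.2, 36.9 and 14.1 FPKM against 3.66, 1.19 and 0.215 FPKM, a difference of 4.50 on the log2 scale. *FBXO43*, encoding the inhibitor of the anaphase promoting complex at metaphase II, was at 14.2, 16.9 and 4.45 FPKM against 1.06, 0.417 and 0 FPKM. These genes share a role in holding or timing meiotic arrest with *WEE2*. *BUB1B*, a spindle checkpoint kinase also used in mitosis, was separated as well, at 31.2, 32.2 and 19.1 FPKM against 5.94, 1.49 and 2.39 FPKM. In contrast, *AURKC*, the Aurora kinase of meiosis, was at similar levels in both classes, at 33.7, 33.7 and 28.1 FPKM against 33.5, 16.9 and 27.5 FPKM. *PLK1*, a kinase of every M phase, was at 8.85, 54.3 and 15.8 FPKM against 10.03, 26.4 and 42.7 FPKM and overlapped widely. *CDC20*, the activator of the anaphase promoting complex, was the 1 listed oocyte gene that did not overlap in the opposite direction, at 5.12, 14.4 and 16.3 FPKM against 17.6, 18.4 and 51.99 FPKM.

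Maternal effect genes, whose products come from the oocyte and are needed by the cleaving embryo in mouse, were mostly higher in the *BMP15*-high embryos. Of 20 listed genes 13 were in the table and 11 were tested, 7 were separated, 9 did not overlap and the median log2 difference was 3.57. *NLRP9*, of an NLR gene family expressed in oocytes, was at 374, 172 and 153 FPKM against 37.9, 7.04 and 0.247 FPKM. *TCL1A*, whose family coactivates AKT, was at 101, 32.3 and 17.5 FPKM against 2.301, 0.964 and 1.59 FPKM, and its levels in the *BMP15*-low embryos were all under 3 FPKM. *OOEP*, a subunit of the subcortical maternal complex, was at 26.95, 60.6 and 26.97 FPKM against 3.29, 3.01 and 3.24 FPKM. The 3 *BMP15*-low embryos were close to each other, and the gap between the classes was 6.90-fold. *KPNA7*, the oocyte form of importin alpha, was at 386, 235 and 70.9 FPKM against 30.1, 16.8 and 5.94 FPKM. *NPM2*, the histone chaperone nucleoplasmin 2, was at 53.4, 48.1 and 22.9 FPKM against 8.23, 0.658 and 0 FPKM. *PADI6*, needed for the cytoplasmic lattices of the mouse oocyte, was at 29.3, 15.3 and 10.3 FPKM against 1.03, 2.57 and 0.326 FPKM. *BNC1*, a zinc finger factor of oocytes and basal epithelia, was at 7.78, 3.88 and 1.197 FPKM against 0.213, 0.157 and 0.0222 FPKM. All of these were separated.

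*H1FOO*, the linker histone of the oocyte, was at 679, 232 and 160.3 FPKM against 89.2, 27.2 and 8.79 FPKM, in the order of *BMP15* but with a ratio under 2 at the threshold. *DNMT1*, the maintenance DNA methyltransferase, whose oocyte form is stored in mouse, had the highest mean FPKM of the tested maternal effect genes, at 1016, 186 and 295 FPKM against 140.2, 35.9 and 11.9 FPKM. Its levels did not overlap in FPKM, yet in scaled counts *CARM1* KD 3 and *CARM1* KD 1 did. *TRIM28*, a corepressor supplied by the mouse oocyte and also transcribed by embryos, did not follow the classes, at 0.562, 17.3 and 14.95 FPKM against 10.4, 10.3 and 32.5 FPKM, and was lowest in control 2.

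Oocyte transcription factors were mixed. Of 6 tested genes 1 was separated and 2 did not overlap, with a median log2 difference of 1.73. *NOBOX*, a homeobox factor of primordial and growing follicles, was at 3.05, 13.7 and 2.82 FPKM against 0.247, 0.227 and 0 FPKM. *FOXR1*, a forkhead factor expressed in oocytes, was at 50.7, 148 and 22.4 FPKM against 16.4, 16.4 and 11.4 FPKM. *CARM1* KD 3 was highest for both. *LHX8*, a LIM homeobox factor of oocytes, was at 6.598, 17.4 and 3.47 FPKM against 0.209, 7.395 and 0 FPKM, where control 3 exceeded 2 of the *BMP15*-high embryos. *TAF4B* and *GTF2A1L*, germ cell forms of general transcription factors, ranged from 4.41 to 17.8 FPKM and from 2.27 to 11.7 FPKM, with overlap between the classes.

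Some factors that store and translate oocyte mRNA were higher in the *BMP15*-high embryos. Of 10 tested genes 3 were separated and 4 did not overlap, with a median log2 difference of 2.44. *YBX2*, which packages stored mRNA in germ cells, was at 23.3, 42.3 and 4.72 FPKM against 1.65, 1.599 and 1.47 FPKM. *PABPC1L*, the poly(A)-binding protein of oocytes and early embryos, was at 6.58, 9.27 and 2.08 FPKM against 0.725, 0 and 0 FPKM. The third separated gene was *CPEB1*, which this list shares with the meiotic regulators. *EIF4E1B*, an oocyte form of the cap-binding protein, was at 33.2, 22.4 and 4.64 FPKM against 4.704, 2.28 and 0 FPKM. *EIF4ENIF1*, which binds eIF4E and restrains translation, was at 22.8, 29.8 and 4.75 FPKM against 4.83, 3.04 and 2.33 FPKM. For both, control 1 was close to *CARM1* KD 1. *DDX6*, a helicase of RNA granules used in many cell types, was at 3.74, 2.896 and 9.13 FPKM against 8.02, 5.98 and 4.35 FPKM and showed no such order.

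The 5 oocyte lists together had 62 genes, of which 50 were in the table, 42 were tested and, leaving out *BMP15*, 16 of 41 were separated, 24 did not overlap in the same direction and 1 did not overlap in the opposite direction. Their median log2 difference was 2.87. Among the separated genes, *BNC1*, *NOBOX* and *PABPC1L* passed the filter through *BMP15*-high embryos alone. Control 2 was the highest library for 18 of these 41 genes and *CARM1* KD 3 for 20, and *CARM1* KD 2 was the lowest for 28. Control 1, the *BMP15*-high embryo nearest the threshold, exceeded *CARM1* KD 1 for 35 genes, control 3 for 34 and *CARM1* KD 2 for 36. The exact order of *BMP15* over all 6 libraries was found for 9 of the 41, a count chosen after the values were seen, against 4.03% of all tested genes in that order and 0.705% in its inverse. The summed FPKM of the 5 lists was 5817 in control 2, 2906 in *CARM1* KD 3 and 1427 in control 1, against 643 in *CARM1* KD 1, 365 in control 3 and 248 in *CARM1* KD 2. These sums include *BMP15* itself, and without it they were 4918, 2593 and 1261 against 592, 354 and 248 FPKM. *CARM1* KD 2 had 25 of the 50 genes at 1 FPKM or more compared with 34 to 46 in the other libraries.

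**Figure D2:**
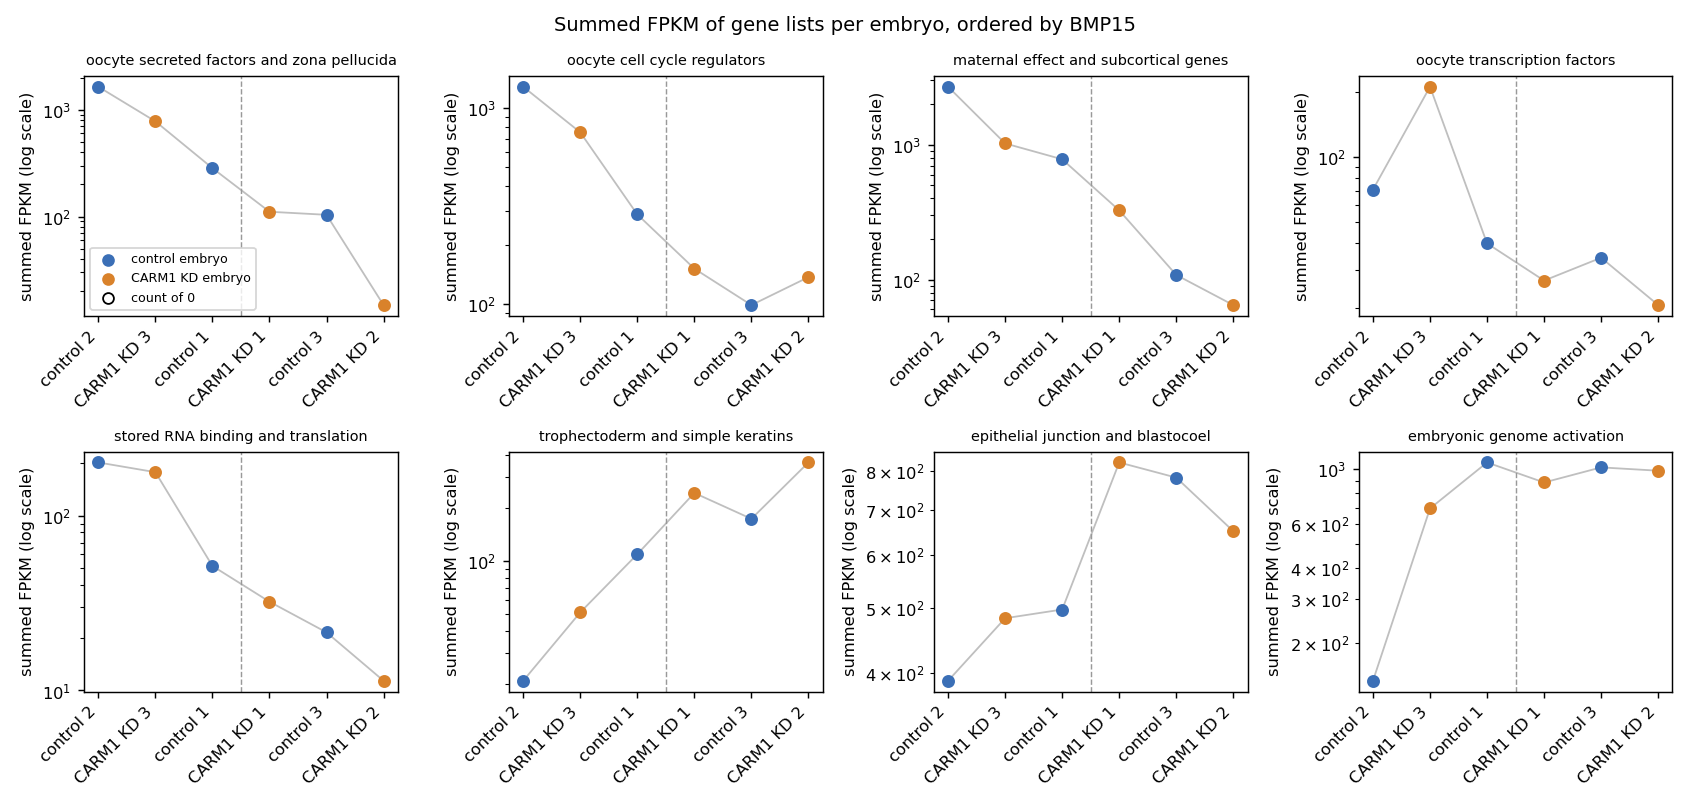
Summed FPKM (log scale, a separate range in each panel) of 8 gene lists in each embryo, ordered by *BMP15*; blue points are control embryos, orange points *CARM1* KD embryos, and the dashed line parts the classes. The sums of the maternal effect and stored RNA lists descended in that order, that of the secreted list includes *BMP15* itself, the oocyte transcription factors peaked at 212 FPKM in *CARM1* KD 3, and the genome activation list was lowest in control 2 at 141 FPKM.

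The machinery that degrades mRNA did not move as a unit. Of 22 tested RNA decay genes 1, *BTG4*, was separated, 5 including it did not overlap with the higher level in *BMP15*-high embryos, 3 did not overlap in the other direction, and the median log2 difference was -0.23. *CNOT7*, a catalytic deadenylase subunit of CCR4-NOT, was at 75.3, 47.5 and 28.9 FPKM against 28.7, 20.1 and 17.5 FPKM. Its paralog *CNOT8* was at 3.54, 18.9 and 22.2 FPKM against 26.9, 29.5 and 18.96 FPKM, lowest in control 2. The paralogs thus differed in direction, by 1.03 and -1.06 on the log2 scale. *CNOT4*, a ubiquitin ligase associated with the complex, was at 69.6, 52.6 and 23.1 FPKM against 10.1, 11.2 and 6.34 FPKM. *PARN*, a poly(A)-specific ribonuclease that acts in frog oocytes, was at 15.7, 18.8 and 11.3 FPKM against 6.61, 3.88 and 1.92 FPKM. *PAN3*, the adaptor of the PAN2 deadenylase, was at 49.1, 27.4 and 7.71 FPKM against 5.98, 8.81 and 8.299 FPKM, where control 1 lay below 2 of the *BMP15*-low embryos. Counts for paralogs can depend on how shared fragments were assigned.

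Tested trophectoderm genes and simple keratins were higher in *BMP15*-low embryos or did not follow the classes. Of 16 listed genes 9 were tested, 2 were separated and 4 did not overlap. The median log2 difference was -2.71, which is the value of *GATA3* itself. The separated genes were *KRT8*, described above, and *ELF3*, an epithelial ETS factor, at 0, 0 and 0 FPKM against 0.156, 1.26 and 2.53 FPKM. *ELF3* had a count of 0 in all 3 *BMP15*-high embryos. Both *ELF3* and *GATA3* passed the filter through *BMP15*-low embryos alone, so nothing is read from their direction. *GATA3*, a trophectoderm transcription factor in several mammals, was at 0, 0 and 0.5495 FPKM against 1.51, 1.53 and 0.178 FPKM. *DAB2*, an endocytic adaptor of trophoblast and endoderm, was at 1.63, 0 and 7.39 FPKM against 77.5, 17.6 and 7.72 FPKM, and control 1 was close to *CARM1* KD 2. *TFAP2C*, a transcription factor of early trophectoderm, was at 0.586, 35.1 and 50.1 FPKM against 41.2, 49.7 and 27.9 FPKM, near the level of the *BMP15*-low embryos in *CARM1* KD 3 and control 1 and near 0 in control 2 alone. *TEAD4*, the partner of YAP1, was at 3.38, 14.5 and 10.1 FPKM against 4.66, 8.34 and 12.2 FPKM and overlapped. *DLX5* also overlapped, at 9.40, 0 and 1.24 FPKM against 0.826, 21.9 and 2.09 FPKM. Among listed genes that did not pass the filter, *EOMES* went the other way, at 0.485, 0.921 and 0.228 FPKM against 0, 0 and 0 FPKM. *DLX3* was seen in control 2 alone, at 4.08 FPKM, and *KRT7*, *CDX2*, *GATA2* and *HAND1* overlapped.

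Junction and blastocoel genes were mixed. Of 19 tested genes 1 was separated and 5 did not overlap, all with the higher level in *BMP15*-low embryos, and the median log2 difference was -0.44. *AQP3*, an aquaglyceroporin of the trophectoderm, was the separated gene at 0, 0.386 and 0.608 FPKM against 4.54, 1.705 and 7.45 FPKM. It passed the filter through *BMP15*-low embryos alone. *AQP9*, another aquaglyceroporin, was at 0, 0.269 and 4.31 FPKM against 3.69, 3.25 and 3.72 FPKM and was highest in control 1. *JUP*, encoding plakoglobin of adherens junctions and desmosomes, was at 0, 7.04 and 9.35 FPKM against 9.98, 11.4 and 35.2 FPKM and did not overlap. *CLDN4*, a tight junction claudin, was at 1.51, 19.2 and 106 FPKM against 333, 142 and 163 FPKM. *CLDN6*, a claudin of early epithelia, was at 13.4, 26.5 and 62.00 FPKM against 105.5, 180.5 and 144 FPKM. Control 1 was the highest of the *BMP15*-high embryos for both. *CLDN7* was at 7.28, 84.3 and 68.9 FPKM against 113, 93.3 and 103 FPKM, and *CARM1* KD 3 was close to control 3. *CDH1*, the cadherin of adherens junctions that is also an oocyte product, was at 29.8, 61.3 and 22.9 FPKM against 20.3, 33.1 and 19.7 FPKM and overlapped. *F11R*, a junctional adhesion molecule, was highest in control 2, at 206, 77.4 and 73.9 FPKM against 84.1, 155 and 34.3 FPKM. *EZR*, the microvillar linker ezrin, ranged from 46.5 to 81.3 FPKM with overlap.

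Genes of embryonic genome activation did not part the classes, and several were lowest in control 2. Of 10 tested genes 0 were separated, 0 did not overlap, and the median log2 difference was -0.92. *KLF17*, a zinc finger factor of early embryos, was at 0.0663, 31.6 and 21.4 FPKM against 23.1, 35.3 and 32.7 FPKM. *FBL*, encoding the nucleolar methyltransferase fibrillarin, was at 0, 128 and 137 FPKM against 119, 153 and 228 FPKM. *DPPA2*, a chromatin factor of cleavage embryos and pluripotent cells, was at 4.13, 81.02 and 108 FPKM against 82.9, 147 and 107 FPKM. In each case *CARM1* KD 3, with 313 FPKM of *BMP15*, was within or near the range of the *BMP15*-low embryos. *HSPA8*, a constitutive chaperone that is transcribed early after activation, was at 42.2, 92.3 and 433 FPKM against 351, 313 and 312 FPKM, low in both control 2 and *CARM1* KD 3. *EIF1AX*, a translation initiation factor used as an activation marker in pig and cattle, was at 15.5, 132 and 188 FPKM against 167, 200.2 and 99.7 FPKM. *NCL*, encoding nucleolin, was at 65.9, 184 and 159 FPKM against 125, 119.6 and 163 FPKM, with control 2 at the bottom and *CARM1* KD 3 at the top. *POLR2A*, the largest subunit of RNA polymerase II, was at 7.24, 14.2 and 5.28 FPKM against 3.57, 6.11 and 27.2 FPKM, and was not lowest in control 2. The list summed to 141 FPKM in control 2 and to 695 FPKM in *CARM1* KD 3, against 884 to 1064 FPKM in the other 4.

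Pluripotency and lineage genes did not share a direction. Of 13 tested inner cell mass genes 1 was separated, *NANOG*, and 2 did not overlap in each direction, with a median log2 difference of -0.18. *NANOG*, a homeobox factor of the epiblast, was at 0, 2.81 and 3.03 FPKM against 6.09, 19.4 and 6.27 FPKM. *LIN28A*, an RNA-binding protein of oocytes and pluripotent cells, was at 33.7, 22.6 and 12.4 FPKM against 5.85, 5.28 and 0.627 FPKM, in the order of *BMP15*. *DPPA5*, an RNA-binding protein of germ cells and pluripotent cells, was at 577, 493 and 109.8 FPKM against 75.1, 150.3 and 26.4 FPKM, with control 3 above control 1. *ESRRB*, an orphan nuclear receptor of pluripotent cells, was at 0.0875, 30.2 and 17.8 FPKM against 11.1, 47.04 and 50.6 FPKM. *GDF3*, a TGFβ-family ligand, was at 0, 18.4 and 19.5 FPKM against 16.5, 66.7 and 21.9 FPKM. *KLF4* was at 6.05, 62.5 and 36.3 FPKM against 16.8, 30.03 and 37.1 FPKM. For these 3 genes *CARM1* KD 3 and control 1 held levels within or above the range of the *BMP15*-low embryos and control 2 was lowest. *SOX2* did not exceed 4.39 FPKM in any embryo. Of 4 tested primitive endoderm genes 0 did not overlap, and *GATA6*, the endoderm GATA factor, was at 0, 22.8 and 17.7 FPKM against 12.7, 20.5 and 50.5 FPKM.

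Cell cycle, stress and mitochondrial genes gave further contrasts between single embryos. *CCNB2*, encoding a B-type cyclin present in oocytes, was the 1 of 13 tested cell cycle genes that did not overlap, at 139.8, 49.4 and 54.7 FPKM against 23.8, 17.7 and 19.6 FPKM. *CCNB1*, the other B-type cyclin, was at 43.1, 234 and 363 FPKM against 208, 379 and 277 FPKM. The 2 cyclins thus had opposite differences, of 1.87 and -0.74 on the log2 scale. *PCNA*, the DNA polymerase clamp, was at 1051, 528 and 612 FPKM against 481, 382 and 296 FPKM and was highest in control 2. *CDKN1A*, the p21 inhibitor of cyclin-dependent kinases, was the 1 of 11 tested apoptosis and stress genes that did not overlap, at 26.6, 20.8 and 16.5 FPKM against 41.7, 55.4 and 91.5 FPKM. *HSPA5*, a chaperone of the endoplasmic reticulum, was at 134, 28.4 and 41.7 FPKM against 56.6, 39.99 and 12.04 FPKM and was highest in control 2. All 13 mitochondrially encoded genes overlapped between the classes, with a median log2 difference of 0.43. *ATP8* was at 53599 FPKM in control 2 and at 6609 to 8475 FPKM in the other 5 libraries.

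Across the transcriptome, leaving out *BMP15* and Y-linked genes, 528 genes were separated with the higher level in *BMP15*-high embryos and 162 with the higher level in *BMP15*-low embryos. At a gap of at least 4-fold 105 and 59 remained, where 0.987% and 0.564% of tested genes met that gap with the excluded genes counted. The 528 genes took up 13.2% of nuclear counts in control 2, 6.48% in *CARM1* KD 3 and 2.65% in control 1. In *CARM1* KD 1, control 3 and *CARM1* KD 2 they took up 0.833%, 0.527% and 0.301%. The choice of these genes fixed the order of the classes in these shares. The 162 genes took up 0.0543%, 0.107% and 0.170% in the *BMP15*-high and 0.576%, 0.512% and 0.715% in the *BMP15*-low embryos. Of the 528 genes, 525, 521 and 456 reached 1 FPKM in the *BMP15*-high embryos and 259, 195 and 116 in the *BMP15*-low embryos. The choice of these genes and the filter favor this difference too. Without control 2, which stood apart, 562 and 200 genes were separated. Without control 1 the counts were 1435 and 1524, and without *CARM1* KD 1 they were 1038 and 414.

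The genes with the largest gaps on the high side, among 4653 genes with a mean of at least 5 FPKM, began with *TCL1A* and *OOEP*, described above, at 6.93-fold and 6.90-fold. *MANBA*, encoding lysosomal beta-mannosidase (chromosome 8, 118251168 to 118409553), was at 23.5, 66.4 and 13.2 FPKM against 1.65, 1.901 and 0.501 FPKM. *HSPB1*, a small heat shock protein (chromosome 3, 10037946 to 10039704), was at 116, 49.5 and 28.8 FPKM against 5.08, 1.48 and 4.16 FPKM. *RSPO2*, encoding an R-spondin that amplifies WNT signaling (chromosome 4, 29415774 to 29577890), was at 181, 180.5 and 91.5 FPKM against 16.96, 8.43 and 0 FPKM. *RSPO2* was the most abundant of those named here, and its gap was 4.95-fold. *TSHZ2*, a zinc finger transcription factor (chromosome 17, 54371631 to 54374699), was at 52.4, 3.701 and 9.11 FPKM against 0.478, 0 and 0.0706 FPKM, most abundant in control 2 and with a count of 0 in control 3. *SLC6A20*, an amino acid transporter, was at 23.4, 41.5 and 12.04 FPKM against 2.21, 1.53 and 0.773 FPKM. Also among them were *SH3GL2*, encoding endophilin A1, *FRY*, *C10orf90* and *ABI3BP*, with gaps of 4.54-fold to 5.33-fold. *CARM1* KD 3 was the highest library for *OOEP*, *MANBA*, *SLC6A20* and *C10orf90*, and control 2 for the others named.

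Among the largest gaps on the low side, *APOA2*, an apolipoprotein made by the liver (chromosome 4, 89237514 to 89239126), was at 0, 0 and 0 FPKM against 26.7, 6.57 and 0.315 FPKM. It had a count of 0 in all 3 *BMP15*-high embryos. *PDPN*, the mucin-type glycoprotein podoplanin (chromosome 6, 73018916 to 73049996), was at 0.0659, 1.71 and 2.71 FPKM against 41.6, 15.4 and 9.51 FPKM. *CTSD*, the lysosomal protease cathepsin D (chromosome 2, 1184804 to 1198471), was at 0, 0.1497 and 6.65 FPKM against 26.5, 18.1 and 48.99 FPKM. *TEN1*, a subunit of the telomere-capping CST complex, was at 1.84, 1.36 and 1.86 FPKM against 9.03, 7.83 and 15.4 FPKM. In *TEN1* the *BMP15*-high embryos were close to each other, at 1.36 to 1.86 FPKM. *SYNGR2*, a synaptogyrin of vesicle membranes, was at 2.03, 5.82 and 2.98 FPKM against 14.97, 17.1 and 13.6 FPKM. *MXD4*, a MAX-binding repressor, was at 0, 10.6 and 4.79 FPKM against 22.6, 25.9 and 58.1 FPKM. *GSKIP*, *IL20*, *NSUN3* and *RF00581* had gaps of 2.78-fold to 3.14-fold, and *KRT8* a gap of 4.71-fold.

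A small number of genes were at 1 FPKM or more in every embryo of a class and at a count of 0 in every embryo of the other. On the high side there were 11, among them *KCNK9*, encoding a background potassium channel, at 8.06, 3.46 and 1.82 FPKM, and *THEG*, known from the testis, at 7.26, 4.79 and 1.38 FPKM. *EGFL6*, a secreted protein with EGF-like repeats encoded on chromosome X, was at 7.10, 3.32 and 1.64 FPKM. These levels were highest in control 2 for each of the 3. On the low side there were 8, among them *TNNI2*, encoding a troponin of fast skeletal muscle, at 4.36, 9.25 and 8.88 FPKM, and *STARD5*, a lipid transfer protein, at 2.16, 1.34 and 1.63 FPKM. At these levels a count of 0 limits the transcript only by the depth of the library, which was lowest in nuclear counts in control 2 (15989799) and control 3 (21514185).

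Pathways annotated in KEGG, added to the description after the data were seen, had their lowest medians for the ribosome, oxidative phosphorylation and the proteasome. Across all tested genes 13.1% did not overlap with the higher level in *BMP15*-low embryos and 15.3% in the other direction. Of 119 tested ribosome genes 49 did not overlap with the higher level in *BMP15*-low embryos and 0 in the other direction, with a median log2 difference of -1.24. For oxidative phosphorylation the counts were 43 and 0 of 120, with a median of -1.25, and for the proteasome 16 and 0 of 39, with a median of -0.98. Few of these genes reached the 2-fold gap, which none of the ribosome genes did and 3 of the oxidative phosphorylation genes did. Among them was *ATP6V0C*, encoding the proton channel subunit of the vacuolar ATPase, at 77.4, 211 and 249 FPKM against 550.0, 461 and 645 FPKM. *NDUFS6*, a subunit of respiratory complex I, was at 7.01, 63.5 and 50.7 FPKM against 115, 97.2 and 121 FPKM. Both were lowest in control 2. The medians were larger in size in the control embryos (control 1 and 2 minus control 3) than between control 1 and control 3 alone, at -2.61 and -0.19 for the ribosome and at -2.79 and -0.31 for oxidative phosphorylation. In the *CARM1* KD embryos (*CARM1* KD 3 minus *CARM1* KD 1 and 2) they were -1.47 and -1.40. Control 2 and *CARM1* KD 3 thus carried these differences, and control 1 was near control 3.

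The pathways of oocyte meiosis and of progesterone-mediated oocyte maturation were mixed. For oocyte meiosis 15 of 77 genes did not overlap with the higher level in *BMP15*-high embryos and 6 in the other direction, with a median of -0.12, and for oocyte maturation 12 and 4 of 54, with a median of 0.30. Their separated members were *CPEB1*, *MOS* and, for meiosis, *FBXO43*. The lysosome pathway had 90 tested genes with a median of -0.78, and it held separated genes on both sides. *MANBA* was higher in *BMP15*-high embryos, and *CTSD* and *ATP6V0C* were higher in *BMP15*-low embryos. In the ubiquitin pathway 19 of 117 genes did not overlap with the higher level in *BMP15*-high embryos and 12 in the other direction. The shares over all tested genes were 15.3% and 13.1%, and nothing is read from the counts of these 4 pathways.

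**Figure D3:**
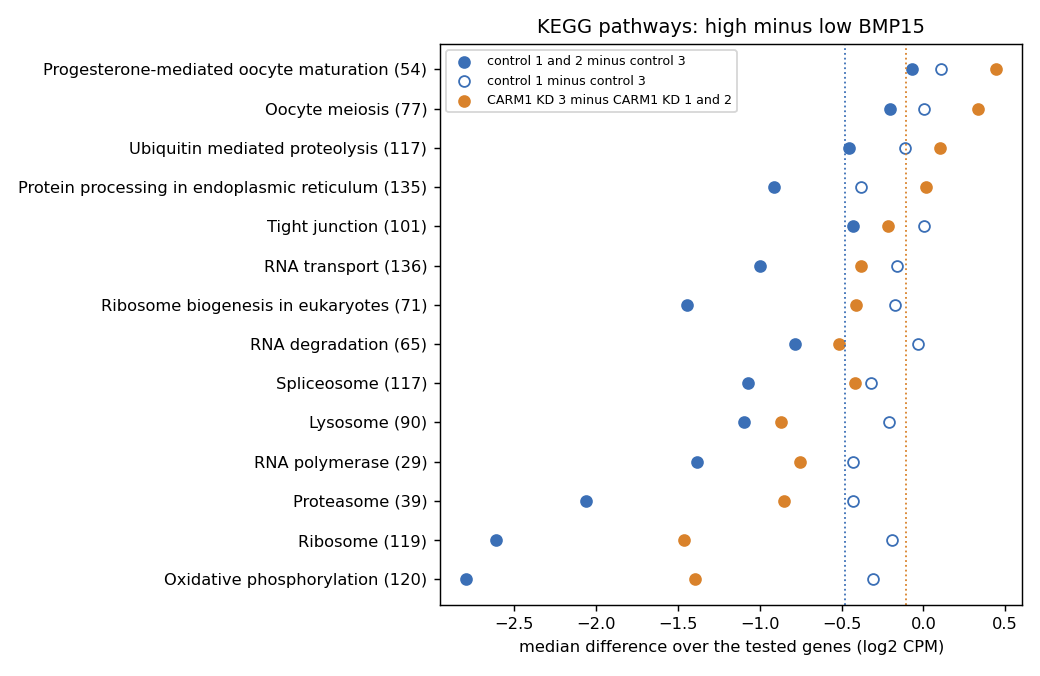
Median log2 difference in CPM over the tested genes of 14 KEGG pathways (number of genes in parentheses), for control 1 and 2 minus control 3 (filled blue), control 1 minus control 3 (open blue) and *CARM1* KD 3 minus *CARM1* KD 1 and 2 (orange); dotted lines are the medians of all genes, -0.48 and -0.10. Oxidative phosphorylation and ribosome lay lowest in the filled comparisons, at -2.79 and -2.61 in control embryos, and near 0 without control 2.

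The separated genes also differed in structure as annotated. The longest annotated transcript had a median of 3631 bases for the 528 genes higher in *BMP15*-high embryos and 1945.5 bases for the 162 genes higher in *BMP15*-low embryos, against 3418.5 bases for all tested genes. The median exon number was 11, 6 and 9, respectively. Chromosome X held 5.30% of the first set, 1.85% of the second and 4.08% of all tested genes. The second set also had the lower median level, at 1.84 FPKM against 4.12 FPKM for the first and 4.77 FPKM for all. Length and level enter the number of counts a gene receives, and their part in these sets was not tested.

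At the level of transcripts, 50 of 3516 genes with at least 2 annotated transcripts and at least 100 counts in every library had a transcript whose share of the gene's counts differed by at least 30 percentage points between the nearest embryos of the classes. Apart from *DNMT1*, the genes named below had the largest such gaps, so their split by class follows from their choice. *KIF14*, a mitotic kinesin of cytokinesis (chromosome 10), had all of its counts in ENSSSCT00000011942 in the 3 *BMP15*-high embryos (401, 588 and 458 counts) and all of them in ENSSSCT00000066101 in the 3 *BMP15*-low embryos (317, 201 and 320 counts). The 2 transcripts have 31 exons each and their annotated ends differ, at 23125239 and 23124804 on the minus strand, so the *BMP15*-low embryos were assigned the form that reaches further downstream. *SPATS2*, a spermatogenesis-associated gene (chromosome 5), had all of its counts in ENSSSCT00000000212 in the *BMP15*-high embryos (1203, 1585 and 1607 counts), and 0%, 0% and 0.250% of them in the *BMP15*-low embryos. The gene's other listed form, ENSSSCT00000042119, took the rest. The totals of both genes also differed, but each was expressed in all 6 embryos.

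*ESRRG*, encoding an orphan nuclear receptor (chromosome 10), was abundant in every embryo. Its 6-exon transcript of 1262 bases held 98.9%, 92.2% and 93.2% of counts in *BMP15*-high embryos and 0% in all *BMP15*-low embryos. Its 7-exon transcript of 5236 bases held 100% in all *BMP15*-low embryos. *GATAD2B*, a subunit of the NuRD chromatin complex (chromosome 4), used the 11-exon transcript starting at 95767062 for 98.3%, 99.3% and 88.7% of counts in *BMP15*-high embryos and the 10-exon transcript starting at 95846818 for 100% in each *BMP15*-low embryo. In these 2 genes control 1 had a minor share of the other form, at 6.82% and 11.2%. *COIL*, encoding the Cajal body protein coilin, *EPB41L4A*, *SMARCC1*, a subunit of the SWI/SNF complex, and *ANLN*, encoding the cytokinetic protein anillin, followed with gaps of 65.0 to 72.4 percentage points. *DNMT1* did not meet the rule. Its transcript ENSSSCT00000046238 held 0%, 0.0196% and 0% of counts in *BMP15*-high and 4.43%, 12.6% and 39.4% in *BMP15*-low embryos. Transcript shares are the authors' estimated assignments from short reads, and transcripts that differ mainly at an end share most of their sequence.

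**Figure D4:**
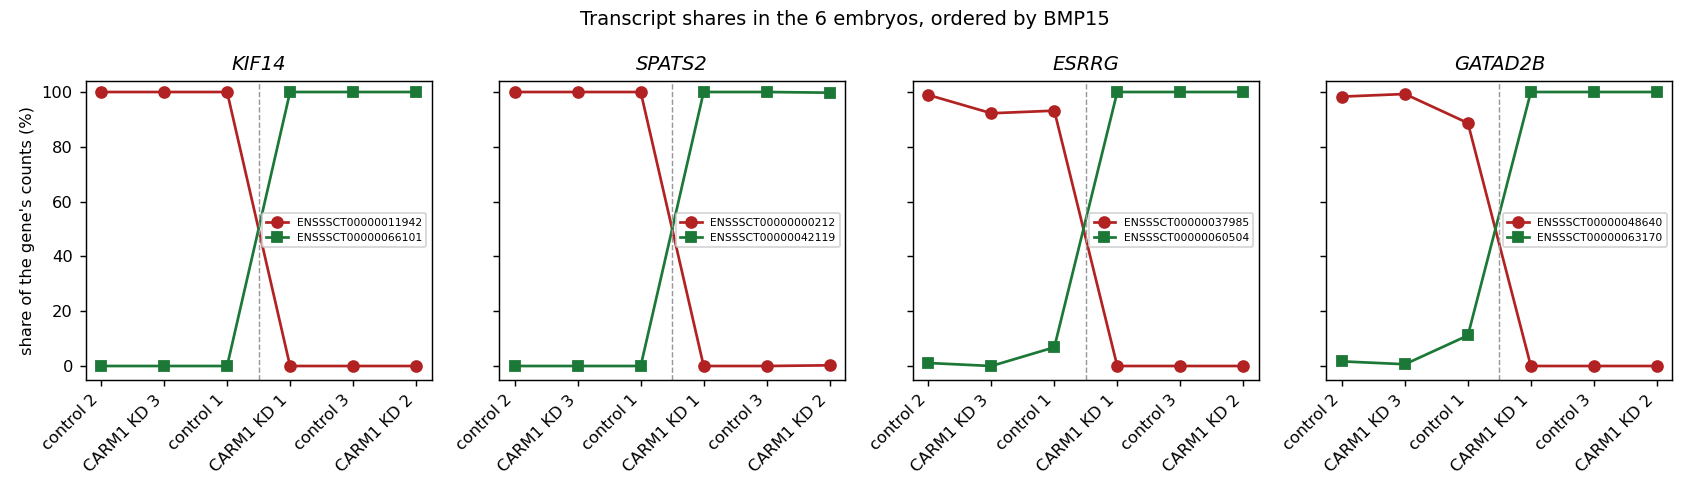
Share of a gene's estimated counts (%) assigned to its 2 leading transcripts in each embryo, ordered by *BMP15*, for *KIF14*, *SPATS2*, *ESRRG* and *GATAD2B*; the dashed line parts the classes. The transcripts changed places at that line in all 4 genes, which follows from their choice by the largest share gap between the classes. Control 1 was at 88.7% for the *GATAD2B* form of the *BMP15*-high embryos.

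Since the classes cut across the labelled groups, the difference was computed separately in control embryos (control 1 and 2 minus control 3) and in *CARM1* KD embryos (*CARM1* KD 3 minus *CARM1* KD 1 and 2), which share no library. Over 10622 genes without *BMP15* and Y-linked genes, 72.4% had the same sign in both, 3242 positive and 4431 negative, and Pearson's r across genes was 0.508. Genes are not independent replicates and no p is given. Differences over 1 on the log2 scale were found in both for 1796 positive and 2121 negative genes and in opposite directions for 609. Without control 2 the same sign was found for 59.8% and r was 0.242. Of the 41 oocyte genes 33 were positive in both groups and 3 were negative in both, with medians of 2.58 in control and 3.43 in *CARM1* KD embryos. The 3 negative genes were *CDC20*, *TRIM28* and *DDX6*.

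*WEE2* differed by 3.82 within control and by 3.58 within *CARM1* KD embryos on the log2 scale, and *BTG4* by 3.71 and 5.67. Of 11 maternal effect genes 10 were positive in both, with medians of 3.49 and 3.63. The median of the same 11 genes for control 1 minus control 3 was 2.63. For the other oocyte lists it was 2.18 (cell cycle regulators), 0.90 (secreted factors, *BMP15* included), 0.61 (stored RNA) and 0.42 (transcription factors). In the stored RNA list 60.0% of genes had the same sign in control 1 minus control 3 as within *CARM1* KD embryos, against 59.8% of all genes. Of 9 trophectoderm and keratin genes 8 were negative in both, with medians of -3.28 and -5.59, and the median for control 1 minus control 3 was -1.47. Among these 8 were *ELF3* and *GATA3*, which passed the filter through *BMP15*-low embryos alone, and -5.59 is the value of *ELF3*. Genome activation genes had medians of -2.45 within control but -0.24 within *CARM1* KD embryos, and inner cell mass genes -1.13 and 0.80. The medians of the oocyte and keratin lists thus had the same sign within both labelled groups, with and without control 2, but were smaller in size without it. The inner cell mass list had medians of opposite signs in the 2 groups.

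**Figure D5:**
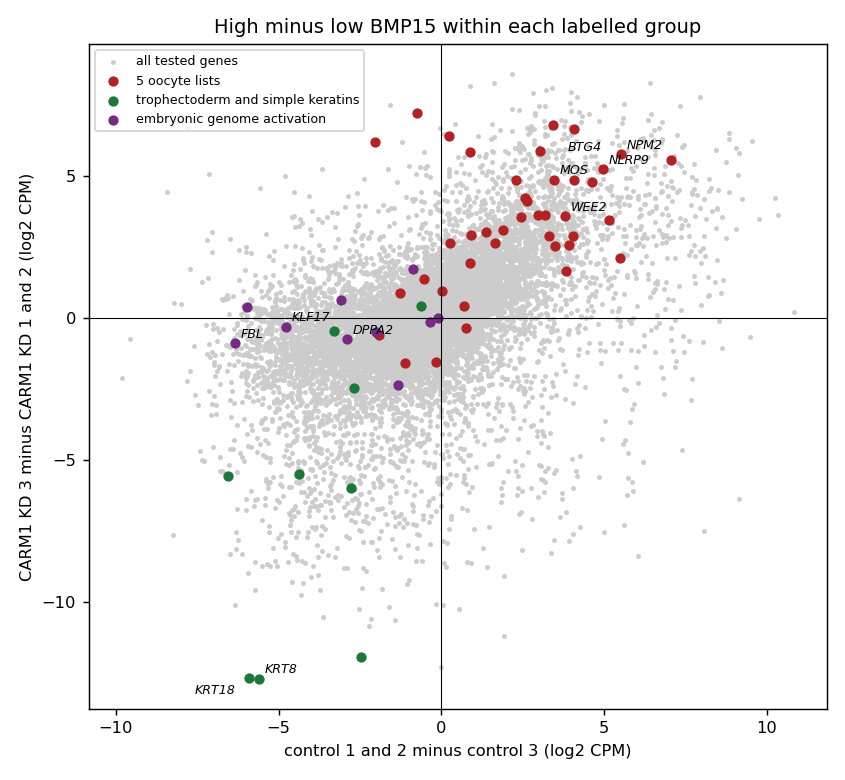
Log2 difference in CPM for each of the 10622 genes between *BMP15*-high and *BMP15*-low embryos within the control group (x axis) and within the *CARM1* KD group (y axis); colored points are the 5 oocyte lists, the trophectoderm and keratin list and the genome activation list. Most oocyte genes lay in the upper right (33 of 41), 8 of 9 trophectoderm and keratin genes in the lower left, and genome activation genes to the left near 0 on the y axis.

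The labelled comparison of *CARM1* KD with control embryos does not depend on the *BMP15* rule and was tested. *CARM1* itself was at 1.96, 4.54 and 1.26 FPKM in controls 1, 2 and 3 and at 0.130, 0.150 and 0.274 FPKM in *CARM1* KD 1, 2 and 3. The 3 injected embryos thus lay below the 3 uninjected ones. Its log2 fold change was -3.98 (unadjusted p = 0.00516, adjusted p = 0.99989, edgeR quasi-likelihood test). In this test 0.0% of genes passed an adjusted p of 0.05, and 0.338% and 0.348% were higher and lower at an unadjusted p of 0.05. DESeq2 called 12 genes, among them *CARM1* (adjusted p = 0.00474) and 4 Y-linked genes, and 0 of the oocyte genes. None of the 41 oocyte genes passed either threshold, with 13 higher and 28 lower in *CARM1* KD embryos. The log2 fold changes of the markers were -2.00 for *BMP15* (unadjusted p = 0.314), -2.47 for *WEE2* (0.181), -1.75 for *BTG4* (0.382), 2.35 for *KRT8* (0.386) and 1.86 for *KRT18* (0.510) in edgeR's test. The summed FPKM of the 5 oocyte lists was 2537 ± 2891 in control embryos (mean ± SD, n = 3) and 1266 ± 1434 in *CARM1* KD embryos (n = 3), so that the SD exceeded the mean in both groups. The difference in log2(sum + 1) was -0.90 (exact permutation test, 2-sided, p = 0.60), where 3 embryos against 3 cannot give a p under 0.1. Without control 2 the difference was 0.10. Of the 528 genes separated on the high side 481 had lower and 47 higher fitted levels in *CARM1* KD embryos, and of the 162 on the low side 141 were higher and 21 lower. None of these genes passed an unadjusted p of 0.05. Their choice sets 1 embryo of each labelled group apart from the other 2 and so widens the spread within groups. This result therefore cannot show whether the knockdown affects them. Because 2 of 3 control embryos were *BMP15*-high and 2 of 3 *CARM1* KD embryos *BMP15*-low, these directions follow in part from the choice of classes.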

How the data were processed

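The deposited tables hold 24358 genes and 47421 transcripts in 6 libraries, with columns matched to samples by name and 0 columns without a sample. The authors deposited FPKM and estimated counts, and for all 24358 genes the count was the total of its transcripts. The methods describe pre-amplified cDNA, TruSeq Nano libraries, HiSeq sequencing and Cufflinks, while GEO's processing notes from the submitters name HISAT2, StringTie, fastp, edgeR, ChIPseeker and HOMER. The sources name no tool as the maker of the values. The notes name the human build GRCh38.p10, but for 14757 genes whose names and chromosomes match pig Sscrofa11.1 in RefSeq the positions overlapped in 99.97%, and positions here are those deposited. Of 6907 genes without a name, 951 were matched to a symbol by Ensembl ID.

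Counts were rounded and fitted in edgeR (TMM, quasi-likelihood test, Benjamini-Hochberg adjustment) for genes with at least 1 FPKM in 2 libraries, with 4 residual degrees of freedom for *CARM1* KD against control. Fold changes between *BMP15* classes came from the same kind of fit, without p. Differences within a labelled group used log2 CPM. Oocyte sums used log2(FPKM sum + 1) and an exact permutation test. Amplified reads without molecular identifiers are not independent molecules, so counts give counting error only. The members and gene lists were chosen with earlier results of these data known. The genes named were the 5 markers, *CARM1*, up to 5 genes per list (the tested ones with the highest mean FPKM), the 12 with the largest gap in each direction at a mean of at least 5 FPKM, up to 8 genes with the largest transcript share gap and *DNMT1*. Some genes that this rule names are not reported here. Other list members, the genes seen in 1 class and the KEGG pathway members were picked with their values in view. Simulated counts were used to test the fit, with a smaller spread between embryos than in these libraries. The fitted spread here, relative to the mean, was 1.12 (edgeR's common value for *CARM1* KD against control). The simulation thus does not show what the fit can detect in these libraries. Alternatives were DESeq2, median-ratio scaling, other filters and gaps, a replicate block, a term for the class, mitochondrial genes left out, FPKM in place of counts, classes by *WEE2*, and each library left out. Python 3.11.15 (with matplotlib 3.10.9, pandas 2.3.3, scipy 1.17.1 and numpy 2.4.6) was used beside R 4.3.3 (with DESeq2 1.42.0, edgeR 4.0.16 and limma 3.58.1).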

Additional observations from a re-analysis of the deposited data

How the results depend on the processing

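Classes by the 3 highest *WEE2* levels held the same libraries. *WEE2* puts the embryos in the order of *BMP15*, so this alternative could not change the counts. The high to low fold changes of 101 named genes gave 904 values under the alternatives, of which 7 moved beyond the spread and 22, in 15 genes that were not separated, had the opposite sign (among them *HSPA5*, from 0.84 to -0.33 without control 2). For genes separated on the high side (528) a gap above 1-fold gave 1627 and a 4-fold gap 105, and leaving out each library gave 562 to 1435 (1435 without control 1, 1038 without *CARM1* KD 1). For those on the low side (162) a gap above 1-fold gave 1381, a 4-fold gap 59, no filter 280 and at least 5 FPKM in 2 libraries 40, and leaving out each library gave 200 to 1524 (1524 without control 1, 414 without *CARM1* KD 1, 307 without control 3). Fewer libraries make a gap easier to reach, so these counts are not comparable in size with the full one.

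In *CARM1* KD against control, DESeq2 called 12 genes where edgeR called 0 under its other settings, and none of the 12 was in the oocyte lists. The oocyte sum reversed to 0.10 without control 2, with a range of -1.89 to 0.10 over libraries left out. Without control 2 the fold changes of *BMP15* (0.20), *WEE2* (0.13) and *BTG4* (0.58) reversed, while without *CARM1* KD 3 they were -4.14, -4.09 and -4.13, the lowest over libraries left out, and with a term for the class those of *KRT8* (-3.73) and *KRT18* (-4.50) reversed. The cause was not tested. Deviations of embryos with equal replicate numbers correlated at 0.18, -0.47 and -0.50. With 1 library per embryo these values cannot exclude a pairing hidden by larger differences between embryos. The replicate block gave 0 calls, with 9 higher and 7 lower at an unadjusted p of 0.05 in edgeR's test against 36 and 37 without it. With 3 embryos a class and 1 embryo a library, embryo and library cannot be told apart.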

Other observations

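The most abundant separated genes outside the lists were chosen after their values were seen, and are given in the order control 2, *CARM1* KD 3 and control 1 against *CARM1* KD 1, control 3 and *CARM1* KD 2. *MCUB*, encoding a subunit that restrains the mitochondrial calcium uniporter, was at 3139.7, 2182 and 161 FPKM against 61.7, 34.9 and 1.62 FPKM. Its level exceeded that of *BMP15* in every embryo except control 1. *POLD3*, a subunit of DNA polymerase delta, was at 669, 447 and 285 FPKM against 94.9, 47.3 and 16.2 FPKM. *FDFT1*, encoding squalene synthase of the sterol pathway, was at 499, 117 and 109 FPKM against 31.5, 35.3 and 6.51 FPKM. *ELOVL6*, a fatty acid elongase, was at 424, 183 and 135 FPKM against 32.4, 55.7 and 21.5 FPKM. On the low side *S100A2*, a calcium-binding protein of epithelia, was at 0, 0 and 14.3 FPKM against 32.5, 44.6 and 36.7 FPKM, with 0 in the same 2 embryos in which *KRT18* was at 0. *SMIM1*, encoding a small membrane protein, was at 0, 42.9 and 109 FPKM against 279.7, 247 and 350.2 FPKM.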
